A study of Homo sapiens with 8 samples.

Results

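The HOX genes encode homeodomain transcription factors and lie in 4 clusters, *HOXA* on chromosome 7, *HOXB* on chromosome 17, *HOXC* on chromosome 12 and *HOXD* on chromosome 2. The 38 protein-coding HOX genes analysed here, chosen by name from the 64486 genes of the annotation, comprise 10 genes of *HOXA*, 10 of *HOXB*, 9 of *HOXC* and 9 of *HOXD*. Methylation at these genes was measured by MBD-seq in 8 neuroblastoma (NB) cell lines. In this assay sheared DNA is captured with the domain of the MBD2 protein that binds methylated CpG, and the captured fragments are sequenced and pile up into peaks.

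The lines are established, untreated cultures of NB tumor cells. IMR-32, N206, CHP-902R and LAN-2 carry amplified *MYCN* (MNA), the oncogene that marks an aggressive form of the disease, and SJNB-1, SH-SY5Y, SK-N-AS and CLB-GA have no such amplification (*MYCN* single copy). With 1 library from each line, the 4 lines of a group are its replicates and a property of 1 line cannot be told apart from a property of its library.

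In the embryo the genes of a cluster are expressed in the order in which they lie on the chromosome. Genes of low paralog number, at the 3′ end, act in the hindbrain and neck, and those of high number act further towards the tail and in the limbs. In tissues that do not use them the clusters are held silent by Polycomb repressor complexes, and in tumors and cultured cells this silencing is often exchanged for DNA methylation, which is densest in the CpG islands that fill the clusters. NB arises from the sympathoadrenal lineage of the neural crest, whose cells carry a HOX code that follows their position along the trunk.

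Short stretches of the GRCh37 reference sequence show the kind of DNA that was captured. Each is the 150 bp with the most CpG, outside UTRs, in the part of a peak region that the largest number of lines shared, printed on the plus strand, with every CpG in capitals. The first 4 lie in the regions on which the comparison across lines turns, the fifth in a single region of *HOXB* with peaks in 4 lines, and the last 2 in regions with a peak in IMR-32 and in no other line. They lie in coding exon 1 of *HOXD12* (chr2:176964621-176964770, 21 CpG), coding exon 4 of *HOXD3* (chr2:177036505-177036654, 20 CpG), coding exon 1 of *HOXD4* (chr2:177016439-177016588, 21 CpG), the span of *HOXC4* outside its canonical transcript (chr12:54441128-54441277, 23 CpG), coding exon 1 of *HOXB1* (chr17:46607986-46608135, 13 CpG), coding exon 2 of *HOXB2* (chr17:46620639-46620788, 24 CpG) and coding exon 1 of *HOXB9* (chr17:46703316-46703465, 23 CpG).
HOXD12: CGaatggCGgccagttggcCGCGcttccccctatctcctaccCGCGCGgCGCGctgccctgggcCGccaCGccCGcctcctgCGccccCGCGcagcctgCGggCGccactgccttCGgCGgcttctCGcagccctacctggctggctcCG
HOXD3: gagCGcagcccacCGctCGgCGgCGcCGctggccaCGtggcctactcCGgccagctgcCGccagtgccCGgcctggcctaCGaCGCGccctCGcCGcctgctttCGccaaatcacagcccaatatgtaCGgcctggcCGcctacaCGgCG
HOXD4: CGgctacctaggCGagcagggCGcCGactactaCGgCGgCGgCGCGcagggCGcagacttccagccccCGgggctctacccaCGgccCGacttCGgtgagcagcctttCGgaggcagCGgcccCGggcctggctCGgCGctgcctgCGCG
HOXC4: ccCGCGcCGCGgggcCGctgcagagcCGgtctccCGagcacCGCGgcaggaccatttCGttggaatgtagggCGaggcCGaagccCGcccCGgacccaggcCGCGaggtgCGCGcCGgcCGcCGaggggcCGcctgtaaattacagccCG
HOXB1: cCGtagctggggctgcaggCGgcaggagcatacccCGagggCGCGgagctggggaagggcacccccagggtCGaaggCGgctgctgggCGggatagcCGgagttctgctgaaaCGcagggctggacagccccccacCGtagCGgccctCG
HOXB2: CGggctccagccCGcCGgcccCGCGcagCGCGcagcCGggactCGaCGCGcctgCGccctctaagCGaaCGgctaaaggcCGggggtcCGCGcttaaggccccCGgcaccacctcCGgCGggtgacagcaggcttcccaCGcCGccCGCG
HOXB9: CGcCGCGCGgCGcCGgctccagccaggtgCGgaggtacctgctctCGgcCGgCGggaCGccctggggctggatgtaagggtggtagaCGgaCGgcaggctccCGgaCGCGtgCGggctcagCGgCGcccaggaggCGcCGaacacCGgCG

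The clusters were rich in CpG throughout. They held between 2.41 CpG per 100 bp in *HOXB* and 3.68 in *HOXA*, against 0.985 per 100 bp over the genome. Within the clusters the sequence under a peak of any line held between 5.58 CpG per 100 bp in *HOXC* and 7.44 in *HOXB*, and the sequence elsewhere between 1.95 and 3.35. In every line the median peak of the clusters was denser in CpG than the median of all its peaks, with medians between 5.03 and 6.9 per 100 bp against 2.42 to 3.15.

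A gene was counted as having a promoter peak when a peak overlapped the window that starts 1500 bp before any of its transcription start sites (TSS) and ends 1000 bp after it by at least 1 bp. The peaks were called by the authors and each carries their score, which is higher for a smaller p-value and was at least 50 in every list. The lists held 70816 to 112412 peaks and no read counts. The authors report that the number of reads differed with the cell line, without a value for each. The depth of a given line is thus unknown here, and the absence of a peak means that none was called at that depth.

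Promoter peaks were found at 25 of the 38 HOX genes in IMR-32, 3 in CHP-902R, 8 in N206 and 9 in LAN-2. Among the single copy lines they were found at 8 in SH-SY5Y, 4 in SK-N-AS, 5 in CLB-GA and 8 in SJNB-1. IMR-32 stood far above the other 7 lines, which had 6.43 ± 2.37 HOX genes with a promoter peak (SD, n = 7). Over all 20176 protein-coding genes the share with a promoter peak was 40.9% in IMR-32, 37.5% in CHP-902R, 36.1% in N206, 39.8% in LAN-2, 38.4% in SH-SY5Y, 33.7% in SK-N-AS, 35.6% in CLB-GA and 33.2% in SJNB-1. The HOX genes were thus at 7.9% to 23.7% in 7 lines, below that background, and at 65.8% in IMR-32, above it.

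**Figure D1:**
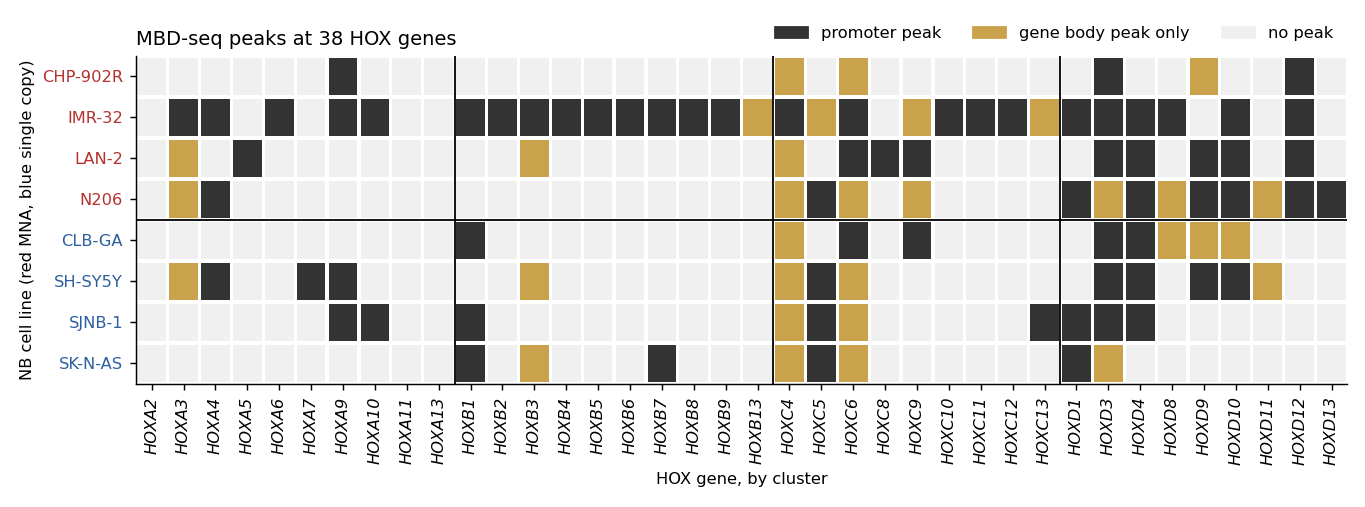
Each column is 1 of the 38 HOX genes, ordered by cluster and paralog number, and each row is 1 NB cell line (red names MNA, blue names *MYCN* single copy). Dark cells mark a promoter peak, ochre cells a peak in the gene body without a promoter peak and grey cells no peak. The IMR-32 row is filled at 9 of 10 *HOXB* promoters, and the *HOXD12* column is dark in the 4 MNA lines and grey in the 4 single copy lines.

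Counting any TSS gave HOX genes fewer chances of a peak, since a HOX gene had a median of 2 annotated TSS and a protein-coding gene 5. With the canonical TSS alone, the HOX genes with a promoter peak numbered 20 in IMR-32, 1 in CHP-902R, 7 in N206, 6 in LAN-2, 5 in SH-SY5Y, 3 in SK-N-AS, 2 in CLB-GA and 6 in SJNB-1. The background for that window was 21.1% in IMR-32, 15.9% in CHP-902R, 14.9% in N206, 17% in LAN-2, 17.9% in SH-SY5Y, 14.4% in SK-N-AS, 14.6% in CLB-GA and 14.3% in SJNB-1. The HOX genes were above it in IMR-32 (52.6%), N206 (18.4%) and SJNB-1 (15.8%) and below it in the other 5 lines, so for N206 and SJNB-1 the position against the background turned with the choice of TSS.

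CpG content was matched by taking the 19 HOX genes whose canonical window held more than 5.2 CpG per 100 bp, the cut above which the most CpG-rich of 3 near-equal classes of protein-coding genes lay. Of these 19 genes, 10 had a peak in IMR-32, 1 in CHP-902R, 5 in N206, 3 in LAN-2, 3 in SH-SY5Y, 1 in SK-N-AS, 0 in CLB-GA and 3 in SJNB-1. The share among the 6725 protein-coding genes of that class was 24.7% in IMR-32, 16.3% in CHP-902R, 16.1% in N206, 17.4% in LAN-2, 20.3% in SH-SY5Y, 15.8% in SK-N-AS, 16.3% in CLB-GA and 15.9% in SJNB-1. Against these shares the CpG-rich HOX promoters were at 52.6% in IMR-32 and between 0% and 26.3% in the other lines, on either side of the background. Of the 7 lines other than IMR-32, N206 was above its background, LAN-2, SH-SY5Y and SJNB-1 were within 1 gene of it, and CHP-902R, CLB-GA and SK-N-AS were below it.

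**Figure D2:**
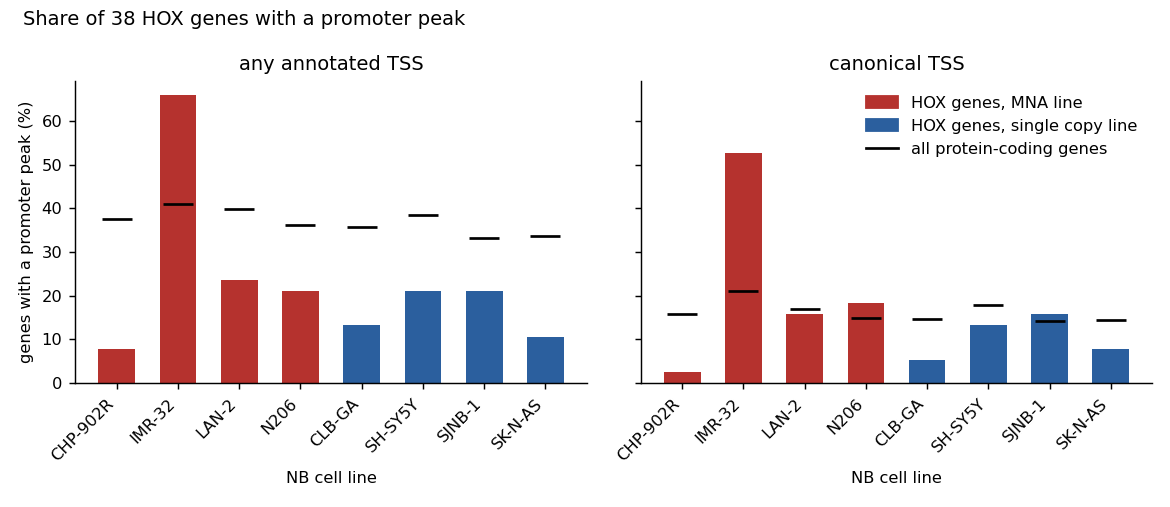
Bars give the share of the 38 HOX genes with a promoter peak in each line (y axis, percent; red MNA, blue *MYCN* single copy), and black dashes the share of all protein-coding genes, for any annotated TSS on the left and for the canonical TSS on the right. The bars of 7 lines lie below the dashes on the left and those of 5 lines on the right, where N206 and SJNB-1 lie slightly above, while the IMR-32 bar exceeds its dash in both.

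Peaks in the gene body, from the first to the last annotated base of a gene, were found at 27 HOX genes in IMR-32, 6 in CHP-902R, 13 in N206, 10 in LAN-2, 10 in SH-SY5Y, 7 in SK-N-AS, 8 in CLB-GA and 9 in SJNB-1. The background over protein-coding genes was 66.8% in IMR-32, 67.9% in CHP-902R, 64.4% in N206, 67.3% in LAN-2, 66.1% in SH-SY5Y, 63.7% in SK-N-AS, 63.6% in CLB-GA and 63.5% in SJNB-1. These shares cannot be read against each other directly, because the median HOX gene spanned 4218 bp and the median protein-coding gene 27194 bp.

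Seen by gene, a promoter peak was present in 2 or more lines at 14 HOX genes, whereas this held for 60.9% of protein-coding genes. In at least 6 lines the count was 2 against a background of 21.6%, and in no line 5 against 26.1%. The remaining pattern was a peak in exactly 1 line, which held for 19 HOX genes (50.0%) and for 13% of protein-coding genes. In 14 of these 19 the line was IMR-32, which was the line for 21.9% of the 2621 such protein-coding genes. Without IMR-32, 19 of the 38 HOX genes had a promoter peak in any line, against 71% of protein-coding genes. These counts use any TSS, of which HOX genes had a median of 2 and protein-coding genes 5. In the canonical window the mean number of lines with a peak, IMR-32 included, was 1.32 for HOX genes. For protein-coding genes it was 1.43, 1.44 and 1.04 in the CpG-rich, middle and CpG-poor classes, so the lower recurrence was not seen in that mean.

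Position along the clusters was described by paralog group. Over the 7 lines other than IMR-32, promoter peaks were present in 18 of 77 gene and line pairs (23.4%) for groups 1 to 4, in 10 of 77 (13%) for groups 5 to 8 and in 17 of 112 (15.2%) for groups 9 to 13. The higher share at the 3′ end came from *HOXD*, in which 61.9% of the pairs of groups 1 to 4 had a peak, while the shares for *HOXA*, *HOXB* and *HOXC* in those groups were 9.5%, 10.7% and 0%. In IMR-32, 10 of 11 genes of groups 1 to 4, 7 of 11 of groups 5 to 8 and 8 of 16 of groups 9 to 13 had a peak. Neighbouring genes can share a peak, so these pairs are not independent.

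Overlaps of the annotation matter for the gene counts. *HOXA3*, *HOXB3*, *HOXB7*, *HOXC4*, *HOXC6* and *HOXD3* have long transcripts that span neighbouring HOX genes. The spans of *HOXA9* and *HOXA10* also overlap, as do those of *HOXD10* and *HOXD11*. In such places 1 peak can count for several genes. Merging the overlapping peaks of the 8 lines gave 81 separate regions, 13 in *HOXA*, 22 in *HOXB*, 24 in *HOXC* and 22 in *HOXD*. Of the 81 regions, 45 touched the promoter window of a HOX gene, 27 lay in a gene body without touching one and 9 lay between the genes. A peak in 1 line alone was found in 46 regions, 31 of them in IMR-32. At the other end, 13 regions had peaks in at least 4 lines, 7 of which lay in *HOXD*, and 2 had peaks in all 8 lines.

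**Figure D3:**
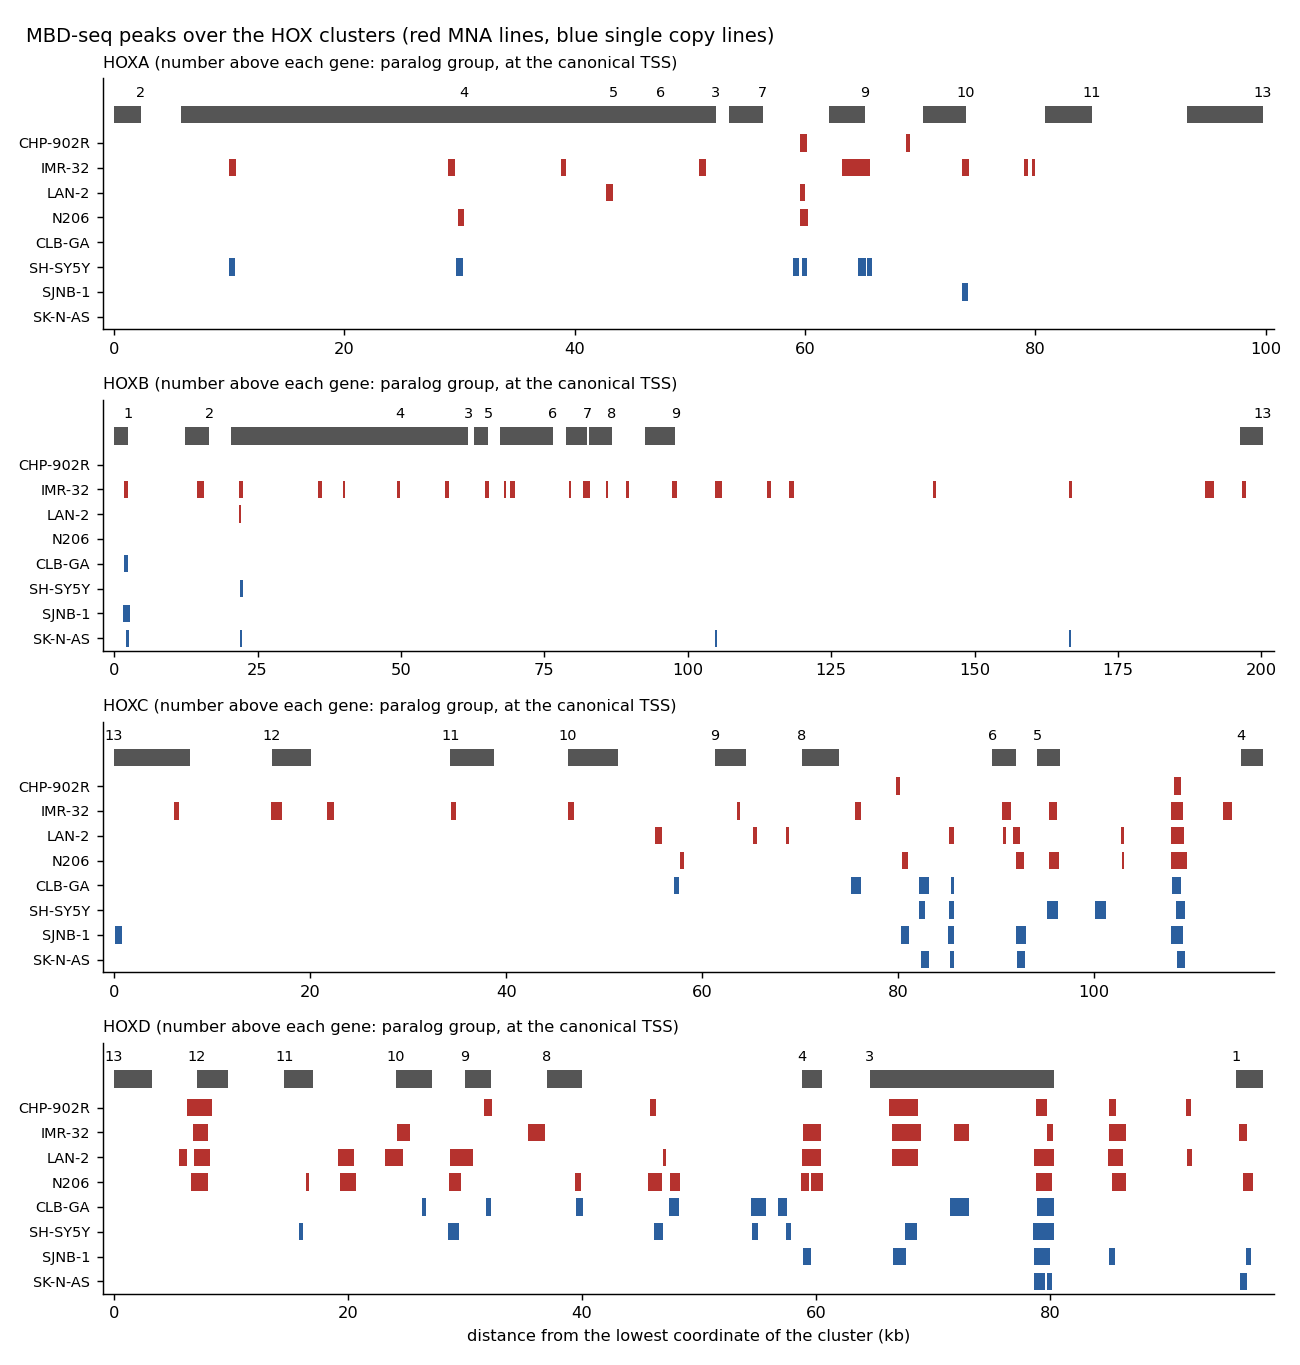
Peaks of each line (rows, red MNA and blue *MYCN* single copy) over the 4 HOX clusters, with the distance in kb from the lowest coordinate of the cluster on the x axis. Grey boxes run from the canonical TSS to the end of each gene, and the number above a box is the paralog group. IMR-32 has 22 peaks spread over *HOXB* where the other lines have 0 to 4, and the only regions with a peak in all 8 lines lie near the right end of *HOXC* and in the *HOXD3* gene.

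The share of the cluster length under peaks needs no assignment of peaks to genes. *HOXD*, 98187 bp long, was the most covered cluster in 7 of the 8 lines, the exception being SK-N-AS, in which *HOXC* was. Its cover was 12.1% in IMR-32, 7.9% in CHP-902R, 12.1% in N206 and 14.7% in LAN-2, and 5.99% in SH-SY5Y, 1.96% in SK-N-AS, 7.43% in CLB-GA and 4.22% in SJNB-1. All MNA lines thus lay above all single copy lines, though CHP-902R exceeded CLB-GA by less than 1 SD of either group. The means were 11.7% ± 2.8 (SD, n = 4) in MNA and 4.9% ± 2.36 (SD, n = 4) in single copy lines, and the two-sided exact permutation test gave p = 0.0286, which no division of 8 lines into 4 and 4 can go below.

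After adjustment over the clusters and the 27546 windows of 100 kb of the genome, the exact permutation test gave 0.95 for *HOXD*, which therefore did not pass. Of those windows, 2.75% were covered more in each MNA line than in each single copy line, and 0.258% the reverse. The lists of the MNA lines were longer, and the median window was covered to 1.24% to 1.42% in MNA lines and to 0.797% to 1.29% in single copy lines. With all lists cut to the length of the shortest the difference in *HOXD* was 5.71 percentage points, with p = 0.0571 in the exact test. In the 1 Mb on each side of *HOXD* the cover was 1.14% to 1.66% in MNA and 0.972% to 1.5% in single copy lines, ranges that overlap. Counted as CpG, 14.0% to 27.8% of the 3330 CpG of *HOXD* lay under peaks in MNA lines and 4.86% to 12.3% in single copy lines.

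*HOXC*, 117200 bp long, was covered to 7.07% in IMR-32, 1.0% in CHP-902R, 4.05% in N206 and 3.77% in LAN-2. The single copy lines had 3.61% in SH-SY5Y, 2.27% in SK-N-AS, 3.23% in CLB-GA and 3.74% in SJNB-1. Apart from CHP-902R and IMR-32, the lines of both groups lay close together, and the difference of 0.76 percentage points had p = 0.6 in the exact permutation test (adjusted p = 1.0). Without CHP-902R the difference was 1.75 points with p = 0.0286 in that exact test, and without IMR-32 it was -0.27 points with p = 0.8286.

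*HOXA*, 99738 bp long, was covered to 6.0% in IMR-32, 0.961% in CHP-902R, 1.23% in N206 and 1.06% in LAN-2. Among the single copy lines CLB-GA and SK-N-AS had no peak in it, SJNB-1 was at 0.524% and SH-SY5Y at 3.22%. *HOXB*, 200225 bp long, had no peak in CHP-902R and N206 and was covered to 0.237% in LAN-2, 0.279% in SH-SY5Y, 0.789% in SK-N-AS, 0.302% in CLB-GA and 0.581% in SJNB-1, but to 8.01% in IMR-32. The groups overlapped in both clusters, with p = 0.4286 for *HOXA* and p = 1.0 for *HOXB* in the exact permutation test (adjusted p = 0.984 and 1.0). For *HOXB* the sign rested on IMR-32, since without it the single copy lines were higher by 0.41 percentage points (MNA minus single copy -0.41, exact permutation test, p = 0.0857).

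**Figure D4:**
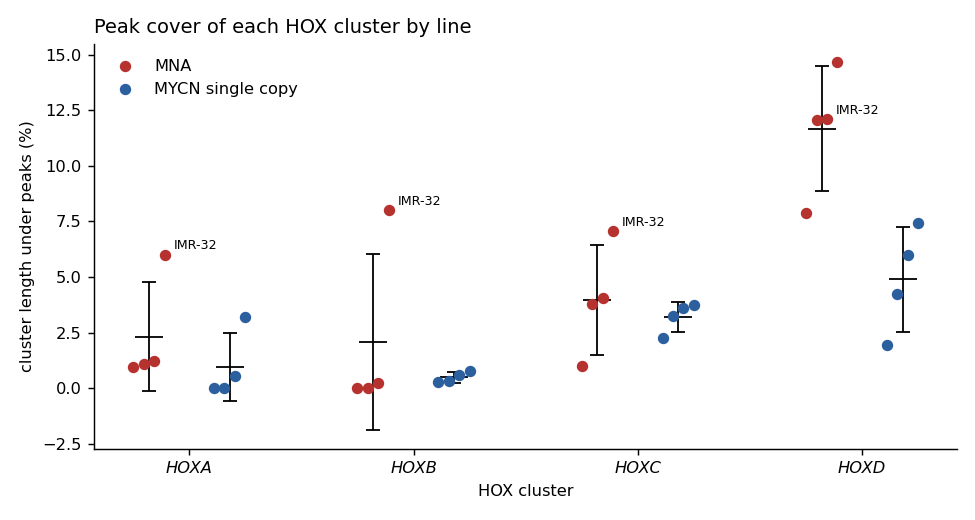
Points give the share of each HOX cluster under peaks (y axis, percent of cluster length) in each of the 4 MNA lines (red) and 4 *MYCN* single copy lines (blue). Black dashes and bars are the group mean and SD. The groups are apart in *HOXD*, where MNA lines lie at 7.9% or more and single copy lines at 7.43% or less, and in *HOXA*, *HOXB* and *HOXC* the IMR-32 point is the highest.

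*HOXD12*, a posterior gene of the limb and trunk, had promoter peaks in IMR-32, CHP-902R, N206 and LAN-2 and in no single copy line. The scores of the highest peak were 122.75 in IMR-32, 223.02 in CHP-902R, 140.63 in N206 and 206.75 in LAN-2, which exceeded, in that order, 92.9%, 99.6%, 96.7% and 98.6% of the peaks of the same list. These peaks formed 1 region of 2770 bp at chr2:176963015-176965784 over exons 1 and 2 and the intron of the gene, in which the 4 lines shared a span of 1131 bp with 89 CpG. The 150 bp printed above for *HOXD12* lie in this shared span. In the single copy lines the nearest peak to the TSS was 8771 bp away in SH-SY5Y, 19274 bp in CLB-GA, 27546 bp in SK-N-AS and 32420 bp in SJNB-1.

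*HOXD12* was the single HOX gene whose promoter peak separated the groups. Among all 64486 genes, 0.146% had a promoter peak in all 4 MNA lines and no single copy line, and 0.0512% the reverse, a pattern found at 0 HOX genes. For *HOXD12* p was 0.0286 by a two-sided Fisher's exact test, again the lowest value that 4 and 4 lines can give, and 1.0 after adjustment over all genes. By the same Fisher's exact test 0 of the 64486 genes passed after adjustment, and 127 were under 0.05 before it. Of the 38 genes, 22 had a peak in more MNA than single copy lines, 4 in more single copy lines and 12 in equal numbers, while 30.3% and 21.8% of protein-coding genes had more in MNA and in single copy lines. This balance rested on IMR-32. Without it, 6 HOX genes had a peak in more MNA lines, 10 in more single copy lines and 22 in equal numbers, and for protein-coding genes the shares were 17.9% and 36.0%, since 3 MNA lines then face 4 single copy lines. By the share of the lines of a group, 9 HOX genes were then higher in MNA and 10 in single copy lines, against 35.0% and 29.2% of protein-coding genes. With IMR-32 left out, the mean number of HOX genes with a promoter peak in MNA lines exceeded that of single copy lines by 0.42, and with it by 5.0.

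*HOXD3* and *HOXD4*, anterior genes of the hindbrain and neck, were the genes with promoter peaks in at least 6 lines. The peaks of *HOXD3* were in CHP-902R, IMR-32, LAN-2, CLB-GA, SJNB-1 and SH-SY5Y, and those of *HOXD4* in IMR-32, LAN-2, N206, CLB-GA, SH-SY5Y and SJNB-1, that is in 3 lines of each group for either gene. *HOXD3* had none of them at its canonical TSS. They lay at TSS further inside the gene, and 5 of the 6 lines shared the region chr2:177023731-177026388 in the intron.

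In *HOXD4* the place of the peaks differed between lines. Peaks in IMR-32, LAN-2, N206 and SJNB-1 formed a region at chr2:177016143-177018088 over both exons, and the gene body of 1677 bp was covered to 92.5%, 96.0%, 93.1% and 37.5% in these lines. The peaks of CLB-GA and SH-SY5Y lay upstream, 1286 bp and 946 bp from the TSS, and covered 0% of the body. The count of 6 lines therefore joins a peak on the gene in 4 lines, 3 of them MNA, with a peak before it in 2 single copy lines.

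*HOXD3* had the largest mean covered length of any HOX gene and was the most covered in 6 of the 8 lines, the exceptions being SJNB-1 and SK-N-AS, in which *HOXC4* was. Peaks covered 3870 bp of it in CHP-902R, 5821 bp in IMR-32, 5762 bp in LAN-2, 5189 bp in N206, 6032 bp in CLB-GA, 4614 bp in SH-SY5Y, 3133 bp in SJNB-1 and 1364 bp in SK-N-AS. The groups overlapped and the single copy line CLB-GA was the highest. Its last exon, exon 4, lay in 1 of the 2 regions with a peak in every line, chr2:177036021-177037815, where the scores reached 305.0 in LAN-2 and 172.58 in SJNB-1 and were 53.62 in IMR-32, in which the peak covered the 3′ part of the region alone. No base of this region was under a peak in more than 7 lines, and the *HOXD3* stretch printed above is shared by those 7.

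*HOXC4*, the most anterior gene of its cluster, held the other such region at chr12:54440483-54442060. The highest score there was 205.72 in IMR-32, 197.89 in LAN-2, 111.79 in N206 and 76.67 in CHP-902R, and 150.92 in SJNB-1, 106.51 in CLB-GA, 67.33 in SH-SY5Y and 66.08 in SK-N-AS. All 8 lines shared 394 bp of it with 43 CpG, in which the *HOXC4* stretch printed above lies. The region lay upstream of the canonical TSS, with the nearest ends of the peaks at -6126 bp to -5559 bp from it, and inside longer transcripts of the gene. In the gene body of *HOXC4* peaks covered 1178 bp in CHP-902R, 3788 bp in IMR-32, 3079 bp in LAN-2, 4397 bp in N206, 2275 bp in CLB-GA, 4234 bp in SH-SY5Y, 3609 bp in SJNB-1 and 2655 bp in SK-N-AS. A promoter peak of *HOXC4* was called in IMR-32 alone.

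*HOXA9*, a regulator of blood progenitors, had the largest mean covered length in *HOXA*, at 3060 bp in IMR-32, 1190 bp in SH-SY5Y, 523 bp in SJNB-1 and 308 bp in CHP-902R, and 0 bp in the other lines. The 523 bp in SJNB-1 and 655 bp of the IMR-32 cover lay at the *HOXA10* TSS, which is inside the annotated span of *HOXA9*. In CHP-902R the peak was 3626 bp upstream of the canonical *HOXA9* TSS. The IMR-32 peak of 2405 bp ran across exons 1 and 2 of the gene. In *HOXB* the gene with the largest mean was *HOXB3*, another anterior gene, at 4872 bp in IMR-32, 558 bp in SH-SY5Y, 474 bp in LAN-2 and 340 bp in SK-N-AS and 0 bp in the others. In both genes the lead of IMR-32 over the next line was larger than the differences among the others.

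No promoter peak was called in any line at *HOXA2*, which patterns the hindbrain and the pharyngeal arches, at *HOXA11* and *HOXD11*, genes of the forearm and kidney, or at *HOXA13* and *HOXB13*, the most posterior genes of their clusters. Their canonical windows held 4.28, 5.8, 8.44, 8.2 and 3.44 CpG per 100 bp in that order, against a median of 5.3 over the 38 genes. *HOXA2* and *HOXB13* thus lay below that median and the others above it. *HOXA2*, *HOXA11* and *HOXA13* had no peak in the gene body either. For *HOXB13* the body peak was in IMR-32, and for *HOXD11* body peaks were in N206 and SH-SY5Y. The nearest peak to the *HOXA11* TSS was 4944 bp away in IMR-32 and 10709 bp or more in the other 7 lines.

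The 9 *HOXB* promoters with a peak in IMR-32 were singled out after their values were seen. They were those of *HOXB1* to *HOXB9*, that is all genes of the cluster except *HOXB13*. The promoter peak of *HOXB3* was the one over exon 1 of *HOXB4*. With the canonical TSS alone 7 of the 9 had a peak, *HOXB3* and *HOXB6* being the exceptions. Of the 22 *HOXB* regions, 18 had a peak in IMR-32 and no other line, and all 22 IMR-32 peaks together held 25.4% of the 4819 CpG of the cluster, against 2.47% or less in any other line. The scores of the IMR-32 peaks had a median of 78.5 and reached 156.1, and 7 of the 22 were at least 100, so that most were moderate peaks of a list with a median score of 71.3. The strongest of these lay between *HOXB9* and *HOXB13*, and the strongest at a promoter was that of *HOXB2* at 141.19, followed by *HOXB7* at 136.1 and *HOXB9* at 103.18. The *HOXB2* and *HOXB9* stretches printed above come from these regions.

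Around *HOXB* the cover of IMR-32 was also higher, at 6.82% of the 1 Mb on each side against 3.11% to 4.45% in the other lines. Its part in the *HOXB* peaks was not tested. Among the 27546 windows of 100 kb, ordered by the lead of IMR-32 over the highest other line, the 3 windows over *HOXB* were at ranks 57, 97 and 2336, the last of them over its *HOXB13* end. The windows over *HOXA* were at ranks 73 and 627, those over *HOXC* at 271 and 15631 and those over *HOXD* at 1194 and 26432, so the lead of IMR-32 did not extend over all of the clusters. Peaks at other HOX promoters in IMR-32 and no other line were at *HOXA3* and *HOXA6* in *HOXA*, *HOXC4*, *HOXC10*, *HOXC11* and *HOXC12* in *HOXC*, and *HOXD8* in *HOXD*, also chosen after their values were seen.

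Outside IMR-32 *HOXB1*, which specifies a segment of the hindbrain, carried most of the *HOXB* promoter peaks. Its peaks had scores of 101.65 in SJNB-1, 60.69 in CLB-GA, 60.71 in SK-N-AS and 70.52 in IMR-32 and overlapped in coding exon 1. The peak was present in 3 single copy lines and 1 MNA line, which in Fisher's exact test gave p = 0.4857. *HOXC5* showed the same split over lines, with promoter peaks in N206, SJNB-1, SK-N-AS and SH-SY5Y (Fisher's exact test, p = 0.4857). The *HOXC5* split depended on the window edges, since peaks 1768 bp upstream of its TSS in LAN-2 and 1148 bp downstream in IMR-32 lay outside. Its upstream region had peaks in 2 MNA and 2 single copy lines. The region on its gene body had peaks in 2 MNA lines and 1 single copy line. *HOXD10* showed the opposite split to *HOXB1*, with promoter peaks in IMR-32, LAN-2, N206 and SH-SY5Y (Fisher's exact test, p = 0.4857).

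Of the other genes, *HOXD1* and *HOXA9* had promoter peaks in 4 lines, 2 of each group, and *HOXA4*, *HOXC6* and *HOXD9* in 3 lines, 2 of them MNA. In the canonical window of *HOXA9* the peaks were in IMR-32 and SH-SY5Y only. *HOXA10* (IMR-32 and SJNB-1), *HOXB7* (IMR-32 and SK-N-AS) and *HOXC9* (LAN-2 and CLB-GA) had them in 2 lines, 1 of each group. The SK-N-AS peak of *HOXB7* lay 22311 bp upstream of the canonical TSS, and no peak of *HOXC6* or *HOXC9* was in the canonical window. A promoter peak in 1 line other than IMR-32 was found at *HOXA5* and *HOXC8* in LAN-2, *HOXA7* in SH-SY5Y, *HOXC13* in SJNB-1 and *HOXD13* in N206. None of these genes was under 0.05 in Fisher's exact test before adjustment.

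Around the canonical TSS the HOX peaks of IMR-32 had a common place. In this line 35.4% of the base positions from 250 bp to 500 bp downstream of the 38 TSS were under a peak, and 29.2% over the first 1000 bp downstream against 6.76% over the 1500 bp upstream. In the other lines cover over the first 1000 bp ran from 1.59% in CLB-GA to 10.1% in LAN-2. For all protein-coding genes cover over the first 1000 bp was 5.79% in IMR-32 and 2.89% to 4.34% in the other lines. IMR-32 was the highest line in both sets.

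**Figure D5:**
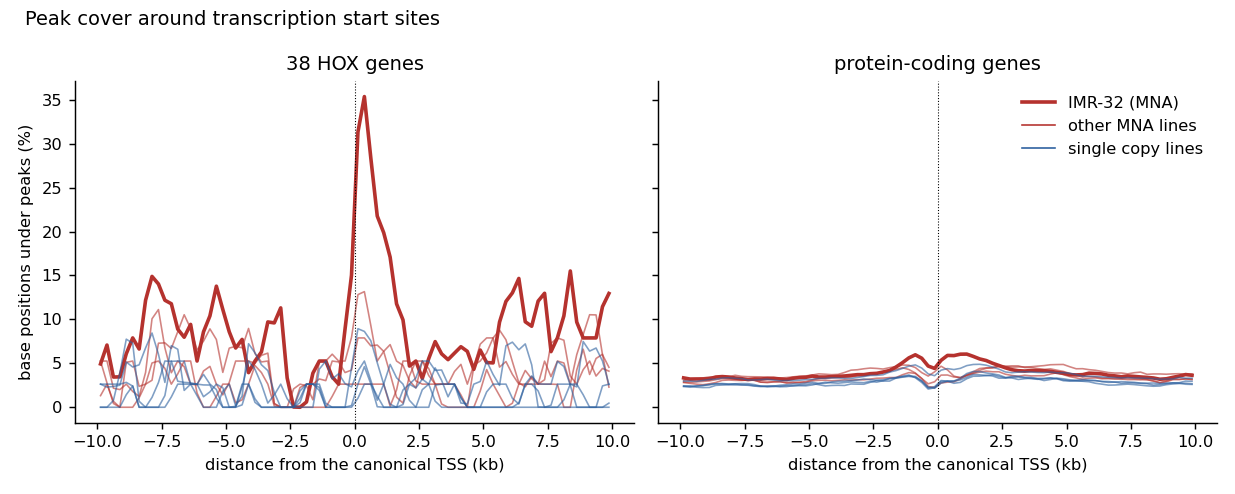
Share of base positions under peaks (y axis, percent) in bins of 250 bp by distance from the canonical TSS (x axis, kb, positive values downstream) for the 38 HOX genes on the left and all protein-coding genes on the right. The thick red line is IMR-32, thin red lines the other MNA lines and blue lines the *MYCN* single copy lines. Over HOX genes IMR-32 peaks at 35.4% just downstream of the TSS, while over all protein-coding genes its highest value is 6.05%.

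The genes that work with or on the HOX clusters were described as lists. TALE homeodomain proteins bind DNA together with HOX proteins, and 9 of 9 of their genes had a promoter peak in some line and 6 in at least 6 lines. The background over protein-coding genes was 73.9% in some line and, as above, 21.6% in at least 6. Among them were *PKNOX1* with 8 lines, *MEIS1* and *MEIS2* with 7 and *MEIS3* with 6, genes with 11 to 36 annotated TSS, so that the any-TSS window gave them more chances than the HOX genes. In the list of ParaHox, CDX and EVX genes, close relatives or regulators of the clusters, 6 of 8 had a peak in some line and 1 in at least 6, *CDX1* with 7 lines and 1 TSS. The first of these counts was near the background. *EVX1* and *EVX2*, which flank *HOXA* and *HOXD*, had promoter peaks in 1 and 0 lines.

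Of 11 genes for Polycomb proteins and for KMT2A and its partners, which repress and activate the clusters, 9 had a peak in some line, near the background, and 0 in at least 6. In this list *RNF2*, a Polycomb ubiquitin ligase, had a peak in 4 MNA lines and 1 single copy line. Noncoding RNAs of the clusters were matched for 18 of 19 names, of which 12 had a promoter peak in some line and 1 in at least 6, while 52.6% and 6.22% of all lncRNA genes did. *HAGLR*, transcribed from the *HOXD* cluster between *HOXD3* and *HOXD1*, had it in 6 lines (4 MNA and 2 single copy), and its neighbour *HAGLROS* in 5 (4 and 1). *HOTAIR*, a noncoding RNA of *HOXC* known for its link to Polycomb, had a promoter peak in IMR-32. No difference of these genes between the groups passed Fisher's exact test after adjustment over all genes.

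Of the miRNAs of the clusters 5 of 6 were matched, and 4 had a peak in the window in some line and 0 in at least 6, against 42.6% and 2.62% of all miRNA genes. *MIR615* had it in 3 lines, *MIR10B* in CLB-GA and SH-SY5Y, *MIR196A1*, which lies beyond *HOXB9*, in IMR-32 and SK-N-AS, *MIR196B*, close to *HOXA9*, in CHP-902R, and *MIR196A2* in 0 lines. The miR-196 members, which target HOX mRNAs, come from 3 of the clusters. They share the seed AGGUAGU (bases 2 to 8, in capitals in the RefSeq mature sequences), and are shown because their loci differed in the lines with a peak.
miR-196a-5p: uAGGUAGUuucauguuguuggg
miR-196b-5p: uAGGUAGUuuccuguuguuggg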

How the data were processed

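The 8 NB cell lines were grouped by the *MYCN* status in their labels (4 MNA, 4 single copy). The authors sheared the DNA, captured it with MBD2 and sequenced it paired-end, mapped the reads with Bowtie 0.12.7 on GRCh37 and called peaks with MACS separately in each line. Neither the options of the peak calling nor an input control is given in the sources used here. The deposited lists give the position and a score of each peak, which the authors' caller derived from its p-value, and which was used here only within a list.

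GENCODE release 44, lifted to GRCh37, gave the TSS, and each promoter window began 1500 bp before a TSS and ended 1000 bp after it. A minimum overlap of 1 bp was required. Cluster spans run from the first to the last base of the HOX genes analysed. Gene counts were tested with two-sided Fisher's exact tests over all genes and cluster cover with two-sided exact permutation tests, adjusted by Benjamini-Hochberg over the clusters and all 100 kb windows (Python 3.11.15, numpy 2.4.6, pandas 2.3.3, scipy 1.17.1). The overlap and test steps were tested on simulated data.

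The 38 genes and the lists were chosen with earlier results of these data known, so counts over them are described without a test. The genes described in full are those with a promoter peak in at least 6 lines or in none, those whose number of lines differs by at least 3 between the groups, and the gene of each cluster with the largest mean covered length. From the lists, genes in at least 6 lines or with a difference of at least 3 lines are named, and any other was chosen after its values were seen. Nothing shows that the lines came from repeated cultures, so p-values measure the spread between lines. Alternatives were a minimum score of 100, lists cut to the length of the shortest, the peak midpoint, an overlap of 200 bp, a window to 500 bp downstream, the canonical TSS, clusters extended by 20 kb and each line left out. The share of CpG under peaks, and the alternatives for the counts of genes with more lines in 1 group, were added after seeing the data. Expression and copy number were not analysed here.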

Additional observations from a re-analysis of the deposited data

Results flagged for a closer look

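In 28 groups of 4 lines, each a count of HOX genes with a peak or the cover of a cluster in 1 *MYCN* group, the gap of the highest or lowest line to its nearest neighbour was divided by the range of the group. In 8 of them this ratio (Dixon's) exceeded the critical value for 4 samples, which chance passes in about 1 of 20 groups. Groups with 3 equal counts give a ratio of 1.0 whatever the size of the gap.

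In the MNA group IMR-32 was the outlying line 5 times. It had promoter peaks at 9 *HOXB* genes where the other MNA lines had 0 each (ratio 1.0), and at 5 *HOXA* genes where they had 1 each (ratio 1.0). Its number of *HOXB* genes with a body peak was 10 against 0, 0 and 1 (ratio 0.9). Its cover of *HOXB* was 8.01% against 0.237% or less (ratio 0.97), and that of *HOXA* 6.0% against 1.23% or less (ratio 0.947).

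In the single copy group SH-SY5Y stood apart in the cover of *HOXA*, at 3.22% against 0.524% or less (ratio 0.837). SK-N-AS had body peaks at 3 *HOXB* genes where the other single copy lines had 1 each (ratio 1.0), and at 2 *HOXC* genes where they had 3 each (ratio 1.0). These last differences amount to 2 genes and 1 gene.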

How the results depend on the processing

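No paired analysis was possible because the replicate numbers only name the lines and do not pair them. With a minimum score of 100, the HOX genes with a promoter peak in at least 2 lines fell from 14 to 3, those in at least 6 lines from 2 to 0, and those in none rose from 5 to 24. With lists cut to the length of the shortest, the last 2 counts were 1 and 10, with the peak midpoint 1 and 8, and with 1 TSS per gene 1 and 12. When each line was left out in turn, HOX genes in at least 6 lines ranged from 0 to 2 and genes in none from 5 to 19, the highest value without IMR-32. Over the same settings the HOX genes with a peak in more MNA lines ranged from 6 to 27 around 22, with the lowest value without IMR-32, and those in more single copy lines from 3 to 10 around 4, with 10 without IMR-32 and 7 without LAN-2. With a score of at least 100 these counts were 10 and 2, and with the midpoint the second was 2. Of the 26 genes with a difference in the number of lines, 18 had equal numbers at a score of at least 100, *HOXC6* among them, and 2 to 7 under the other settings with all lines kept, and 0 turned. Without IMR-32 the mean excess of HOX genes with a promoter peak in MNA lines dropped from 5.0 to 0.42. The separation of the groups by *HOXD12* held under all alternatives run.

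The *HOXD* difference in cover, 6.78 percentage points, was 4.33 points with a score of at least 100 (exact permutation test, p = 0.0571) and 5.71 with lists of equal length (p = 0.0571, exact permutation test), and so passed 0.05 in neither. With each line left out it ranged from 5.79 to 8.05, and p was 0.0571 without LAN-2 or any single copy line and 0.0286 without another MNA line (exact permutation test). Over the same settings the difference ranged from -0.27 to 1.75 points in *HOXC* and from -0.41 to 2.26 in *HOXB*, with the negative values without IMR-32, and from 0.15 to 2.14 in *HOXA*. With 1 TSS per gene, N206 and SJNB-1 moved from below to above the background of protein-coding genes. The depth of each line is unknown, so a gene without a peak may be methylated below what could be called.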
